A study of Mus musculus with 6 samples.

Results

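The BCL2 family decides whether the outer mitochondrial membrane stays closed or opens and commits a cell to apoptosis. Survival proteins of the family, such as BCL2, BCL-XL and MCL1, hold back the pore-forming effectors BAK and BAX, and the BH3-only proteins release that brake. Blood stem and progenitor cells depend on MCL1 in particular, lymphocytes on BCL2, and platelets and red cell precursors on BCL-XL. Phosphorylation, on which protein phosphatase 2A (PP2A) acts, controls several of these proteins after translation, and RNA levels do not measure it.

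The rule took every gene whose symbol equals one of 10 listed names, and all 10 were found, each in 1 row, among 52550 genes listed. The 4 survival members were Bcl2, Bcl2l1, Mcl1 and Bcl2a1b. The 6 death members were the BH3-only genes Bcl2l11, Bid, Bad, Bmf and Bik and the effector Bak1. Bax, Bbc3 and Pmaip1 were set apart by the rule and are described with the rest of the family.

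The samples were 6 poly(A) RNA libraries of mouse bone marrow cells labelled hematopoietic stem cells. The 3 wild-type (WT) libraries came from mice of the genotype Ppp2caf/f, which have floxed Ppp2ca, which encodes the alpha catalytic subunit of PP2A, and for which no Cre is named. The 3 knockout (KO) libraries came from VAV1crePpp2caf/f mice, which have the same floxed gene and a Cre recombinase under the Vav1 promoter, active across the blood lineages from early progenitors on. The sources used here give no age, sex, strain or sorting markers. They also do not say whether each library came from its own animal, so the p-values weigh genotype only against the spread between these libraries, which may be technical. Values are normalised read counts, that is, gene reads divided by 1 size factor per library. The libraries held 37951985 to 58692037 reads over genes.

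Ppp2ca itself stood at 32909, 33451 and 33169 normalised reads in the WT libraries. It stood at 23728, 22419 and 24046 in the KO libraries, a mean of 70.5% of WT (limma, adjusted p = 0.00268). These counts cover the whole gene and do not measure the deletion. Among 12 stem cell markers, 11 fell in KO and 0 rose, and their summed level was 96235 to 107918 in WT and 32592 to 52021 in KO. Among 10 granulocyte-monocyte progenitor markers, 8 rose and 1 fell. In bulk RNA, fewer cells of a type and less RNA per cell cannot be told apart, and this holds for every difference given here.

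The first sequences shown are the starts of the coding sequences of Bcl2a1b and of its copies Bcl2a1a and Bcl2a1d, shown because their near identity limits how far reads can be assigned to Bcl2a1b. Bases are from GENCODE M21 transcripts (GRCm38), coding positions 1 to 60, 5′ to 3′, with the 6 positions that differ among the 3 copies in capitals. They lie in coding exon sequence on chromosome 9, at 89199360 to 89199419 on the plus strand for Bcl2a1b, 88957051 to 88957110 on the plus strand for Bcl2a1a and 88731660 to 88731719 on the minus strand for Bcl2a1d.
Bcl2a1b: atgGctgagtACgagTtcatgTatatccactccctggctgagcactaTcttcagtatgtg
Bcl2a1a: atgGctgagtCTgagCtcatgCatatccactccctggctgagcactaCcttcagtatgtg
Bcl2a1d: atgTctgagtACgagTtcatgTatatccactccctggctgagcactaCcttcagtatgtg
The 516 coding bases of Bcl2a1b differed from Bcl2a1d at 6 positions and from Bcl2a1a at 11. Of all runs of 50 bases in the Bcl2a1b transcript, 57.6% also occurred in one of the other copies, and of runs of 100 bases 31.1%.

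Also shown are the promoters of Bcl2 and Bak1, the members that passed the test, to compare the start regions of a member that fell and one that rose. They are RefSeq sequences of GRCm38.p6, the 250 bases upstream of a RefSeq start, 5′ to 3′ on the gene's strand, which is minus for both: chr1:106714291-106714540 for Bcl2 and chr17:27028628-27028877 for Bak1. The RefSeq start of Bak1 lies inside the gene's span as the files give it, so its window does too, while the Bcl2 window lies just outside its gene's span. Capitals mark a GC box (GGGCGG or its reverse complement).
Bcl2 promoter: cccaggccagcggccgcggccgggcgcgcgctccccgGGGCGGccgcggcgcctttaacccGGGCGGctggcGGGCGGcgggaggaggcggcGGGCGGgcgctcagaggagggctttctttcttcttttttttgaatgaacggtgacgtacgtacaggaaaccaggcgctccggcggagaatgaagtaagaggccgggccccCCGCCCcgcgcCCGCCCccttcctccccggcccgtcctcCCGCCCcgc
Bak1 promoter: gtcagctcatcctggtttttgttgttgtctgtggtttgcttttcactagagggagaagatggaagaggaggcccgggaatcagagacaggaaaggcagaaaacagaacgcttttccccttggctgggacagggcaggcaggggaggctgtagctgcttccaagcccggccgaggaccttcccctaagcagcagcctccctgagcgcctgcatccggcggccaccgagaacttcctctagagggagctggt
The Bcl2 window held 7 GC boxes and 74.8% G and C, and the Bak1 window 0 GC boxes and 58.4%. A GC box was present in 32.7% of 32851 such windows of all genes, and in 7 of the 15 windows found for 9 of the 10 members. Neither printed window held a CCAAT box (CCAAT, 33.8% of all windows), a TATA box (TATAAA, 12.4%) or an E-box (CACGTG, 6.02%), searched on both strands. The motifs do not overlap each other in the printed windows, and a match describes these letters only.

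Of the 10 members, Bcl2 fell and Bak1 rose in KO, and the other 8 did not pass the test. All 10 passed the filter on low values. Among all 20136 genes tested, 10.3% were called higher, 13.0% lower and 23.3% in either direction (limma, Benjamini-Hochberg adjusted p below 0.05). So 2 called members of 10 lie near that background, and the count says nothing particular about the family. The members' median log2 fold change was 0.06, beside −0.02 over all tested genes.

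**Figure D1:**
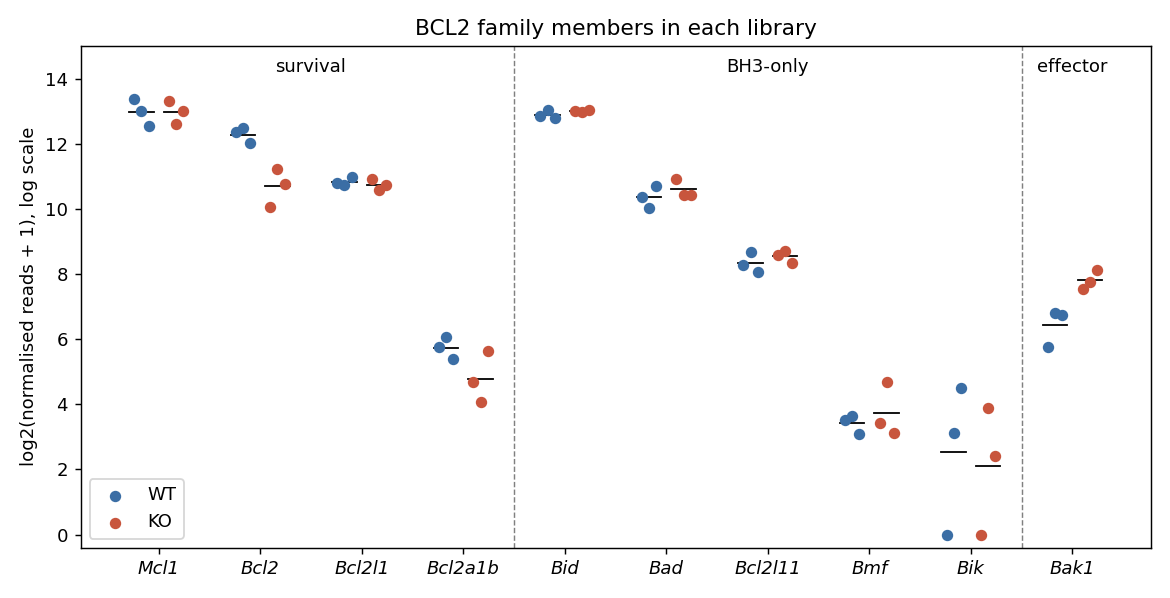
Normalised read counts of the 10 members on a log2(value + 1) scale (vertical axis), with 3 WT (blue) and 3 KO (red) libraries as points and group means of the log2 values as lines. Bcl2 is lower in all KO libraries and Bak1 higher in all KO libraries, while the groups of every other member overlap.

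Bcl2 (ENSMUSG00000057329.7, GRCm38 chromosome 1, 106538178 to 106714274) encodes the founding survival protein of the family. The WT libraries held 5211, 5664 and 4167 normalised reads of it and the KO libraries 1068.5, 2408 and 1743. Every KO library was below every WT library, and KO replicate 1 had the lowest value. Mean levels were 5014 ± 768 in WT and 1740 ± 670 in KO (SD, n = 3), a KO level at 34.7% of WT. On the log2 scale the change was −1.59 ± 0.27 (SE), with a 95% interval from −2.23 to −0.95 and an adjusted p of 0.00631 in limma. Bcl2 passed in all 19 alternative analyses, with fold changes between −1.86 and −1.28 on the log2 scale. The antisense transcript D630008O14Rik, which shares 558 of the 9157 exon bases of Bcl2, averaged 734 in WT and 233 in KO. The sources used here do not say whether the counting used strand, so reads from the shared bases cannot be assigned to one of the pair.

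Mcl1 (ENSMUSG00000038612.16, chromosome 3, 95658788 to 95663176), whose short-lived protein binds BIM and BAK, had 10659, 8203 and 6025 normalised reads in WT and 10107, 6271 and 8227 in KO. The groups overlapped fully. Mean levels were 8296 ± 2318 in WT and 8202 ± 1919 in KO (SD, n = 3), and the difference had a 95% interval from −0.55 to 0.54 on the log2 scale (limma, adjusted p = 0.992). The interval leaves room for a change of that size in either direction.

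Bcl2l1 (ENSMUSG00000007659.18, chromosome 2, 152780668 to 152831728) encodes BCL-XL and, by splicing, a shorter pro-death form, which gene-level counts do not separate. It had 1759, 1684 and 1995 normalised reads in WT and 1915, 1517 and 1703 in KO, with overlapping groups. The log2 fold change was −0.09 with a 95% interval from −0.38 to 0.21 (limma, adjusted p = 0.680), a narrower interval than that of Mcl1.

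Bcl2a1b (ENSMUSG00000089929.1, chromosome 9, 89199209 to 89207827), a mouse copy of the gene of the survival protein A1, was read rarely, with 16 to 70 reads per library. Its normalised counts were 52.6, 66.6 and 40.7 in WT and 24.6, 15.7 and 48.3 in KO. KO replicate 3 lay within the WT range, and the difference did not pass (log2 fold change −0.95, 95% interval −2.13 to 0.24, limma adjusted p = 0.232). With the copies Bcl2a1a, Bcl2a1b, Bcl2a1c and Bcl2a1d summed, WT libraries held 94.7 to 116 and KO libraries 49.1 to 104, and the log2 fold change was −0.64 (adjusted p = 0.260). Bcl2a1c was listed at 0 in all 6 libraries.

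Among the BH3-only members, Bid (ENSMUSG00000004446.12, chromosome 6, 120891930 to 120916853), whose protein is activated when caspase-8 cleaves it, had the highest level per kilobase of exon. It had 7337, 8296 and 7108 normalised reads in WT and 8182, 8012 and 8405 in KO. WT replicate 2 lay within the KO range. The log2 fold change was 0.12 with a 95% interval from −0.08 to 0.32 (limma, adjusted p = 0.390), the narrowest interval among the members. The 3′ ends of Bid and Bcl2l13 run into each other on opposite strands and share 628 exon bases.

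Bad (ENSMUSG00000024959.13, chromosome 19, 6941861 to 6951898) encodes a protein that 14-3-3 proteins hold in the cytosol while it is phosphorylated. Its normalised read counts were 1317, 1032 and 1656 in WT and 1932, 1380 and 1381 in KO. The groups overlapped and the difference did not pass (log2 fold change 0.24, 95% interval −0.24 to 0.72, limma adjusted p = 0.470). Gpr137, on the opposite strand, shares 524 of the 2558 exon bases of Bad and averaged 346 in WT and 489 in KO.

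Bcl2l11 (ENSMUSG00000027381.16, chromosome 2, 128126038 to 128162547) encodes BIM, which binds all survival proteins of the family and is a known target of FOXO3. It had 309, 409 and 267 normalised reads in WT and 382, 418 and 324 in KO. The groups overlapped and the difference did not pass (log2 fold change 0.21, 95% interval −0.30 to 0.71, limma adjusted p = 0.559).

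Bmf and Bik were at the edge of detection. Bmf (ENSMUSG00000040093.15, chromosome 2, 118528757 to 118549687), whose protein is tethered to motor complexes through a dynein light chain, had 8 to 12 reads in the WT libraries. In KO it had 9, 25 and 9 reads, with the high value in KO replicate 2. Bik (ENSMUSG00000016758.3, chromosome 15, 83526862 to 83544635), a BH3-only gene whose protein sits at the endoplasmic reticulum, had 0, 8 and 23 reads in WT and 0, 14 and 5 in KO. A library at 0 allows up to 3 reads, counting error only. For both genes the 95% interval of the log2 fold change was wide, from −1.09 to 1.73 for Bmf (adjusted p = 0.755) and from −3.64 to 2.76 for Bik (adjusted p = 0.856 in limma), so a difference was not detectable at this depth.

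Bak1 (ENSMUSG00000057789.13, chromosome 17, 27019810 to 27029009) encodes BAK, one of the effectors that oligomerise into the membrane pore. Its normalised read counts were 52.6, 110 and 106 in WT and 185, 214 and 280 in KO, from 45, 116 and 112 reads in WT and 173, 218 and 325 in KO. Every KO library was above every WT library, and WT replicate 1 stood below the other WT libraries. Mean levels were 89.7 ± 32.1 in WT and 227 ± 48.7 in KO (SD, n = 3), a ratio of 2.53. On the log2 scale the change was 1.38 ± 0.36 (SE), with a 95% interval from 0.55 to 2.21 and an adjusted p of 0.0287 in limma. The call was lost without WT replicate 1 (1.04, adjusted p = 0.0545), without KO replicate 2 (1.41, adjusted p = 0.0559), without KO replicate 3 (1.22, adjusted p = 0.108) and without the intensity trend of the variance (adjusted p = 0.060). It held with edgeR (1.33, adjusted p = 0.0222) and DESeq2 (1.33, adjusted p = 0.00321) on the recovered reads. Ggnbp1, on the opposite strand, shares 437 of the 2407 exon bases of Bak1 and stood at 54.0 in WT and 15.6 in KO, a difference that did not pass (log2 fold change −2.20, limma adjusted p = 0.0903). The part of shared reads in the Bak1 difference was not tested.

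**Figure D2:**
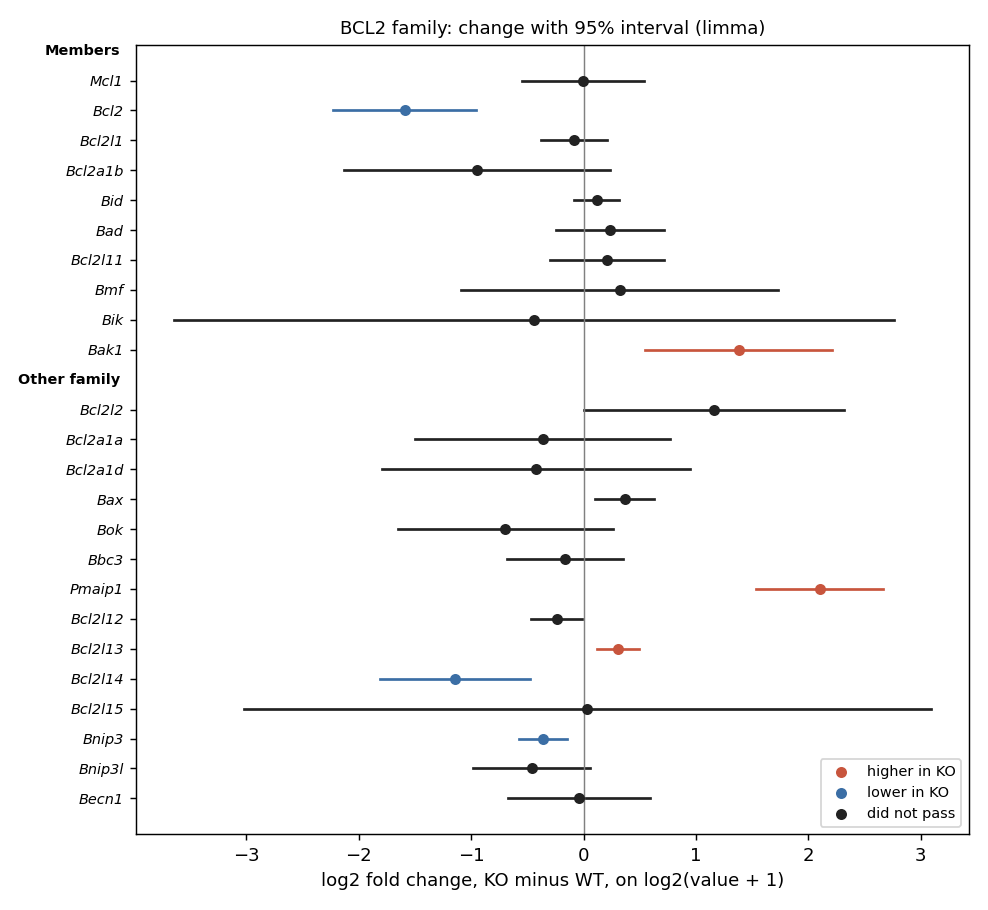
Log2 fold change of KO against WT on the log2(value + 1) scale (horizontal axis) for the 10 members and the 14 tested other family genes, as points with 95% intervals from limma. Bcl2 at −1.59 and Bak1 at 1.38 are the coloured members, and Pmaip1 at 2.10 is the highest of the other family genes.

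The WT and KO libraries did not overlap for 2 members, Bcl2 below and Bak1 above. Over all tested genes, 19.1% had all KO libraries above, 21.7% all below, and 40.9% groups that did not overlap in either direction. The 4 survival members all had a negative log2 fold change, with a median of −0.52, but only Bcl2 passed. That of Mcl1 was −0.005, almost no change, and its sign reversed in 5 of 19 alternatives. The signs therefore do not show a shared fall of the survival members. Of the 6 death members, 5 had a positive log2 fold change and Bik a negative one, with a median of 0.22, and only Bak1 passed. As a description with no test, the mean log2 value of the survival members minus that of the death members was 3.77, 3.03 and 2.58 in WT and 2.50, 1.55 and 2.45 in KO. The difference between the group means was −0.96, and the WT and KO ranges did not overlap. Bik, at 0 in WT replicate 1 and KO replicate 1, widened that spread. Without it the values were 2.41, 2.14 and 1.95 in WT and 1.05, 0.71 and 1.42 in KO. With Bcl2 and Bak1 left out as well, omissions chosen after the values were seen, WT libraries stood at 0.97 to 1.22 and KO libraries at −0.12 to 1.05, so the groups then overlapped.

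Levels of different members can be compared only per length. Per kilobase of merged GENCODE exons, the WT order was Mcl1 (2427 ± 678), Bid (2135 ± 178), Bcl2 (548 ± 83.8), Bad (522 ± 122), Bcl2l1 (395 ± 35.3), Bcl2a1b (65.3 ± 15.9), Bcl2l11 (40.9 ± 9.11), Bak1 (37.3 ± 13.4), Bik (6.15 ± 6.94) and Bmf (1.87 ± 0.384), in normalised reads per kilobase (SD, n = 3). Libraries of Mcl1 and Bid overlapped in WT, as did those of Bcl2 and Bad, of Bad and Bcl2l1, of Bcl2a1b and Bcl2l11, of Bcl2l11 and Bak1, and of Bik and Bmf. In KO, Mcl1 (2400 ± 561) and Bid (2310 ± 55.5) again stood first and overlapped. Bcl2, at 190 ± 73.1, then lay below both Bad (612 ± 124) and Bcl2l1 (373 ± 43.5), with no overlap of its libraries with theirs. Bak1, at 94.2 ± 20.2, lay above all libraries of Bcl2l11 (46.7 ± 5.90) and Bcl2a1b (36.2 ± 20.6). Merged exons include long untranslated regions that not every transcript carries, so the order depends on that annotation.

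Mcl1 made up 65.2% to 75.4% of the survival members' summed level per kilobase in WT and 75.0% to 84.0% in KO. The share of Bcl2 was 13.8% to 17.8% in WT and 3.31% to 10.7% in KO. Bid made up 73.0% to 82.2% of the death members' sum in WT and 72.3% to 77.2% in KO, and Bak1 0.827% to 1.61% and 2.42% to 3.80%. The summed survival level per kilobase was 4136, 3467 and 2703 in WT and 3522, 2448 and 3028 in KO, and these ranges overlapped. The summed death level was 2644, 2844 and 2742 in WT and 3186, 2951 and 3069 in KO, every KO library above every WT library. Both sums depend on the scaling. Total normalised reads were 44391581 to 46310456 in WT and 49336024 to 50641650 in KO. Bid, most of the death sum, overlapped between groups and changed sign with scaling to the same total.

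**Figure D3:**
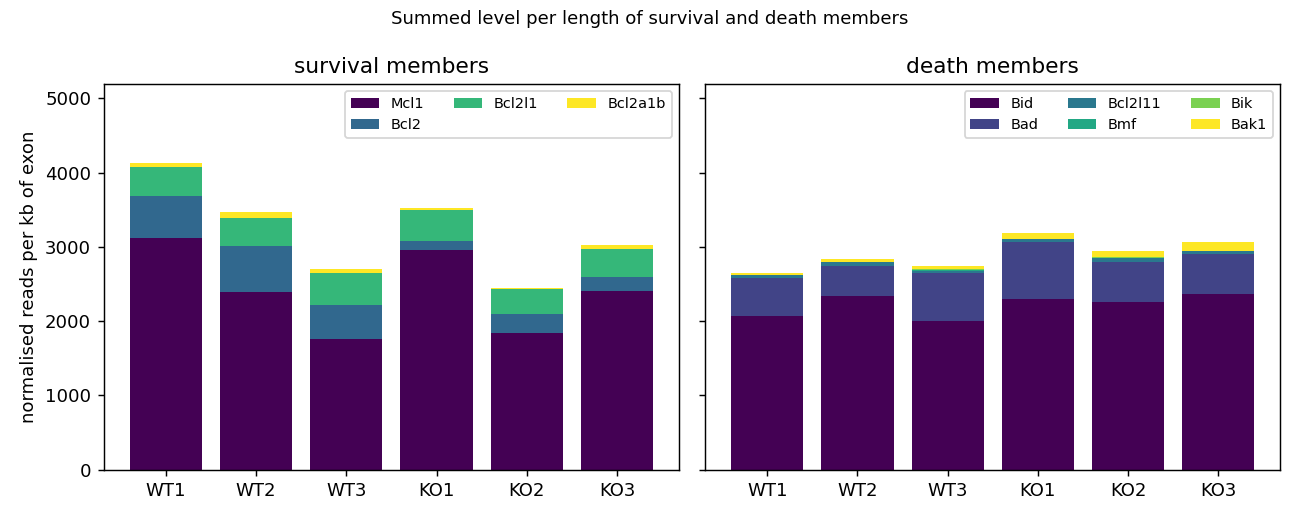
Normalised reads per kilobase of merged exons (vertical axis), stacked by member, for the survival members (left) and the death members (right) in each of the 6 libraries. Mcl1 and Bid take most of each bar, the Bcl2 layer is thinner in the KO bars, and the Bak1 layer is thicker there.

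The order of Bcl2 and of Mcl1 within each genotype was set beside cell markers after the values were seen. Within KO, Bcl2 was lowest in replicate 1, intermediate in replicate 3 and highest in replicate 2, at 1068.5, 1743 and 2408. Cd34, a stem and progenitor cell marker, had the same order, at 11711, 17787 and 23958. Within WT, Cd34 ranged only from 41869 to 44209 and its order differed from that of Bcl2. Over the whole list of 12 stem cell markers, 9 ranked the KO libraries as Bcl2 did, and 1, Gata2, ranked the WT libraries as Bcl2 did. Bcl2 stood at 12.4%, 13.4% and 9.43% of the Cd34 count in WT and at 9.12%, 10.1% and 9.80% in KO, with overlapping ranges. Against Kit, the stem cell factor receptor, it stood at 17.1%, 22.8% and 19.1% in WT and at 7.22%, 13.5% and 10.7% in KO, with no overlap. These ratios are within 1 library and not per length, and only their change between groups can be read.

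Of the 10 mature neutrophil markers, 9 ranked the KO libraries as Mcl1 did, but only S100a8, a calgranulin gene, ranked the WT libraries so. The order of Mcl1 in KO was the reverse of that of Bcl2. The stem cell and neutrophil marker counts in KO thus describe the same ranking of 3 libraries and are not separate observations. The share of all tested genes with either order was not counted. Ngp, a granule protein gene, was highest in WT replicate 2, at 42130, with 24653 and 17776 in WT replicates 1 and 3. S100a8 had 67690, 56003 and 42026 normalised reads in WT replicates 1 to 3, where Mcl1 had 10659, 8203 and 6025. In KO, S100a8 had 152504, 71356 and 101549 where Mcl1 had 10107, 6271 and 8227. S100a8 rose in KO (log2 fold change 0.93, limma adjusted p = 0.0460) while Mcl1 did not pass. That S100a8 call did not hold in 11 of 19 alternatives, which include those without WT replicates 1, 2 or 3 and without KO replicate 1 (0.65, adjusted p = 0.0839) or 3. Mcl1 stood at 15.7%, 14.6% and 14.3% of the S100a8 count in WT and at 6.63% to 8.79% in KO. Each group has 3 libraries, so no correlation is given.

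**Figure D4:**
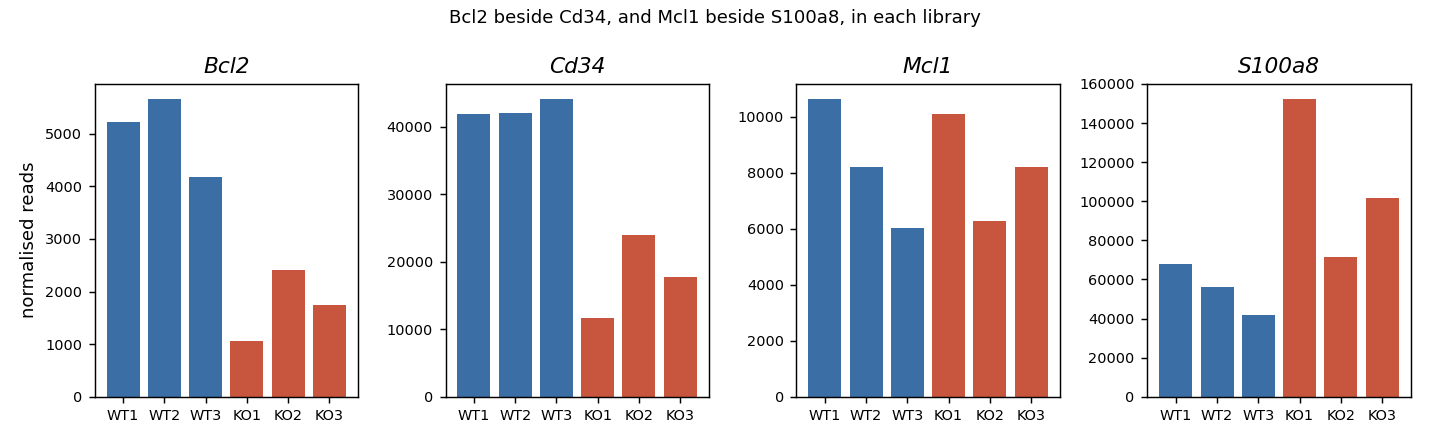
Normalised read counts (vertical axes, each from 0) of Bcl2, Cd34, Mcl1 and S100a8 in the 3 WT (blue) and 3 KO (red) libraries. Among the KO bars Bcl2 and Cd34 share one order, and in both groups Mcl1 and S100a8 share one order, which the other 9 neutrophil markers do not share in WT.

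Marker lists of other cell types differed in how far they moved with genotype. Over all tested genes, 10.3% were called higher, 13.0% lower and 23.3% in either direction. The summed levels of the mature neutrophil list and of the monocyte and macrophage list overlapped between the groups. Among 10 mature neutrophil markers, 3 rose and 1 fell, and their sum was 83989 to 142524 in WT and 121253 to 267914 in KO. The granulocyte-monocyte progenitor sum was 1278184 to 1515575 in WT and 1889332 to 2102214 in KO. Of the 7 tested B lineage markers, 2 fell, Ighm (log2 fold change −2.62) and Igkc (−5.11). Of the others, which did not pass, Igll1 averaged 26.2 in WT and 95.9 in KO (limma adjusted p = 0.164). It was the only 1 with a positive fold change. Cd79b averaged 2632 and 2533. The summed list, in WT mostly Ighm and Igkc, stood at 31259 to 54146 in WT and 5955 to 7193 in KO. The defining B cell transcription factors Pax5 and Ebf1 were listed at 0 in all 6 libraries. Of 8 tested T and NK markers, 4 fell and 1 rose (sum 33791 to 35247 in WT and 41700 to 43915 in KO, nearly all of it Nkg7), and Cd8a was listed at 0. Of 10 erythroid markers 9 fell (43543 to 51765 and 9466 to 10435), and of 8 megakaryocyte markers all 8 fell (23046 to 27974 and 5652 to 7741). Of 9 mast, basophil and eosinophil markers 7 fell (74772 to 145273 and 18977 to 37669), and of 10 monocyte and macrophage markers 3 fell (52635 to 78689 and 58259 to 67456). Prtn3, a granulocyte-monocyte progenitor marker named after its values were seen, rose to 205% of its WT level (log2 fold change 1.04, limma adjusted p = 0.00145). Bak1 stood at 0.126% to 0.227% of the Prtn3 count in WT and at 0.178% to 0.272% in KO, with overlapping ranges. Such a ratio depends on the marker chosen. In KO, Bak1 stood at 253% of its WT mean. Mpo and Elane, the most read markers of that list, stood at 130% and 131%, and Ctsg and Ms4a3 at 262% and 284%. These ratios are descriptions, and the part of these cell types in the differences of Bcl2 and Bak1 was not tested.

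The rest of the family held 17 further genes, of which 14 passed the filter. Of these, 2 rose, 2 fell and 10 did not pass, with a median log2 fold change of −0.20. Over all tested genes, 10.3% were called higher and 13.0% lower, so these counts say nothing particular about the family. Pmaip1, whose protein NOXA binds MCL1, was at 1275 ± 366 in WT and rose to 5412 ± 1206 in KO (2.10 ± 0.24 SE on the log2 scale, limma adjusted p = 0.00162), and its call held in all 19 alternatives. Its level per kilobase was 0.153 to 0.248 of that of Mcl1 in WT and 0.794 to 0.874 in KO. The effector Bax had 2377, 2845 and 2822 normalised reads in WT and 3716, 3129 and 3517 in KO. All KO libraries lay above all WT libraries, yet the difference did not pass (0.37, 95% interval 0.10 to 0.63, limma adjusted p = 0.0536). It passed in 5 of 19 alternatives, among them edgeR (adjusted p = 0.0463), DESeq2 (adjusted p = 0.0303) and the fit without KO replicate 2 (0.44, adjusted p = 0.0417). Per kilobase, Bax was 39.4 to 69.0 times the level of Bak1 in WT and 19.2 to 30.6 times in KO.

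Bcl2l13, a mitochondrial outer membrane protein linked to mitophagy, rose from 4746 ± 107 to 5878 ± 324 (log2 fold change 0.31, limma adjusted p = 0.0316). Bnip3, a mitophagy receptor, fell from 3274 ± 103 to 2557 ± 166 (−0.36, limma adjusted p = 0.0283), and Bcl2l14 fell from 182 ± 40.5 to 81.0 ± 11.9 (−1.15, limma adjusted p = 0.0252). These 3 calls were fragile. Bcl2l13 lost its call in 9 of 19 alternatives, among them without any one library but KO replicate 1, and with the replicate block (adjusted p = 0.0585). Bnip3 lost it in 8, among them without any single library and with the replicate block (adjusted p = 0.0533). Bcl2l14 lost it in 5, among them without WT replicates 2 or 3 and without KO replicates 1 or 3. Without 1 library, adjusted p reached 0.137 for Bcl2l13, 0.0771 for Bnip3 and 0.0889 for Bcl2l14.

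The BH3-only gene Bbc3, which encodes the p53 target PUMA, averaged 567.5 ± 59.2 in WT and 517 ± 143 in KO (−0.17, limma adjusted p = 0.645). The survival gene Bcl2l2, encoding BCL-W, averaged 45.9 ± 18.7 and 108 ± 52.3 (1.16, adjusted p = 0.138). Bok, a further pore-forming relative, averaged 129 ± 27.9 and 84.4 ± 43.4 (−0.69, adjusted p = 0.276). Bcl2l12, Bnip3l and Becn1, with means between 1524 and 7109, did not pass either, nor did the A1 copies Bcl2a1a and Bcl2a1d or the barely read Bcl2l15. Bcl2l10, Bcl2a1c and Hrk were listed at 0 in all 6 libraries.

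Downstream of the membrane pore, cytochrome c assembles with APAF1 into the complex that activates caspase-9. Of 18 listed genes of the mitochondrial death pathway, not all of them downstream of the pore, 6 rose, 4 fell and 8 did not pass. Their median log2 fold change was 0.14. Over all tested genes, 10.3% were called higher and 13.0% lower. Cycs, the gene of cytochrome c, rose from 20490 ± 564 to 30935 ± 728 (log2 fold change 0.59, limma adjusted p = 0.00160). Apaf1 rose from 1549 ± 396 to 2692 ± 63.1 (0.83, adjusted p = 0.0177), a call lost without KO replicate 3 (0.85, adjusted p = 0.0561) and without the intensity trend (adjusted p = 0.0700). Vdac2, the channel that holds BAK at the mitochondrion, rose to 151% of its WT level (0.60, adjusted p = 0.00251), and Htra2, a mitochondrial protease, to 144.5% (0.53, adjusted p = 0.00850). Casp6, a caspase gene, fell to 46.6% (−1.10, adjusted p = 0.00138), and Birc2, a ubiquitin ligase of the IAP family, to 65.9% (−0.60, adjusted p = 0.00603). Named after their values were seen, Endog (0.57) and Vdac1 (0.48) also rose and Casp8, the caspase that cleaves BID (−0.48), also fell. The Vdac1 call was lost without WT replicates 1, 2 or 3 and without KO replicates 2 or 3, and that of Casp8 without WT replicates 2 or 3 and KO replicate 3. Casp9 did not pass.

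Of 26 regulators and binding partners of BCL2 proteins, 4 rose, 3 fell and 19 did not pass, with a median of −0.01. That count, too, lies near the 23.3% called in either direction over all tested genes. Foxo1 fell from 590 ± 64.5 to 295 ± 35.5 (−0.997, limma adjusted p = 0.00686) and Foxo3 from 809 ± 31.9 to 469 ± 43.9 (−0.79, adjusted p = 0.00716). Both encode transcription factors known to activate Bcl2l11, which itself did not pass. Ywhaz, the 14-3-3 zeta gene, rose to 161% of its WT level (0.69, adjusted p = 0.00258). The kinase genes Rps6ka1 and Akt1, whose products phosphorylate BAD, rose to 141% (0.50, adjusted p = 0.00451) and 143% (0.52, adjusted p = 0.0171), and the Akt1 call was lost in 3 alternatives, without KO replicate 3 (0.51, adjusted p = 0.0658), without the intensity trend (adjusted p = 0.0842) and with quantile normalization (0.29, adjusted p = 0.0955). Huwe1, a ubiquitin ligase of MCL1, rose to 143% (0.51, adjusted p = 0.00643). Stat5b, named after its value was seen, fell to 72.3% (−0.48, adjusted p = 0.0338), a call lost without any one library but KO replicate 2. Trp53, at 18207 ± 1216 in WT and 14473 ± 2288 in KO, did not pass in the reported analysis (−0.34, adjusted p = 0.0879). It passed in 4 alternatives, one of them without KO replicate 2 (−0.44, adjusted p = 0.0382).

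**Figure D5:**
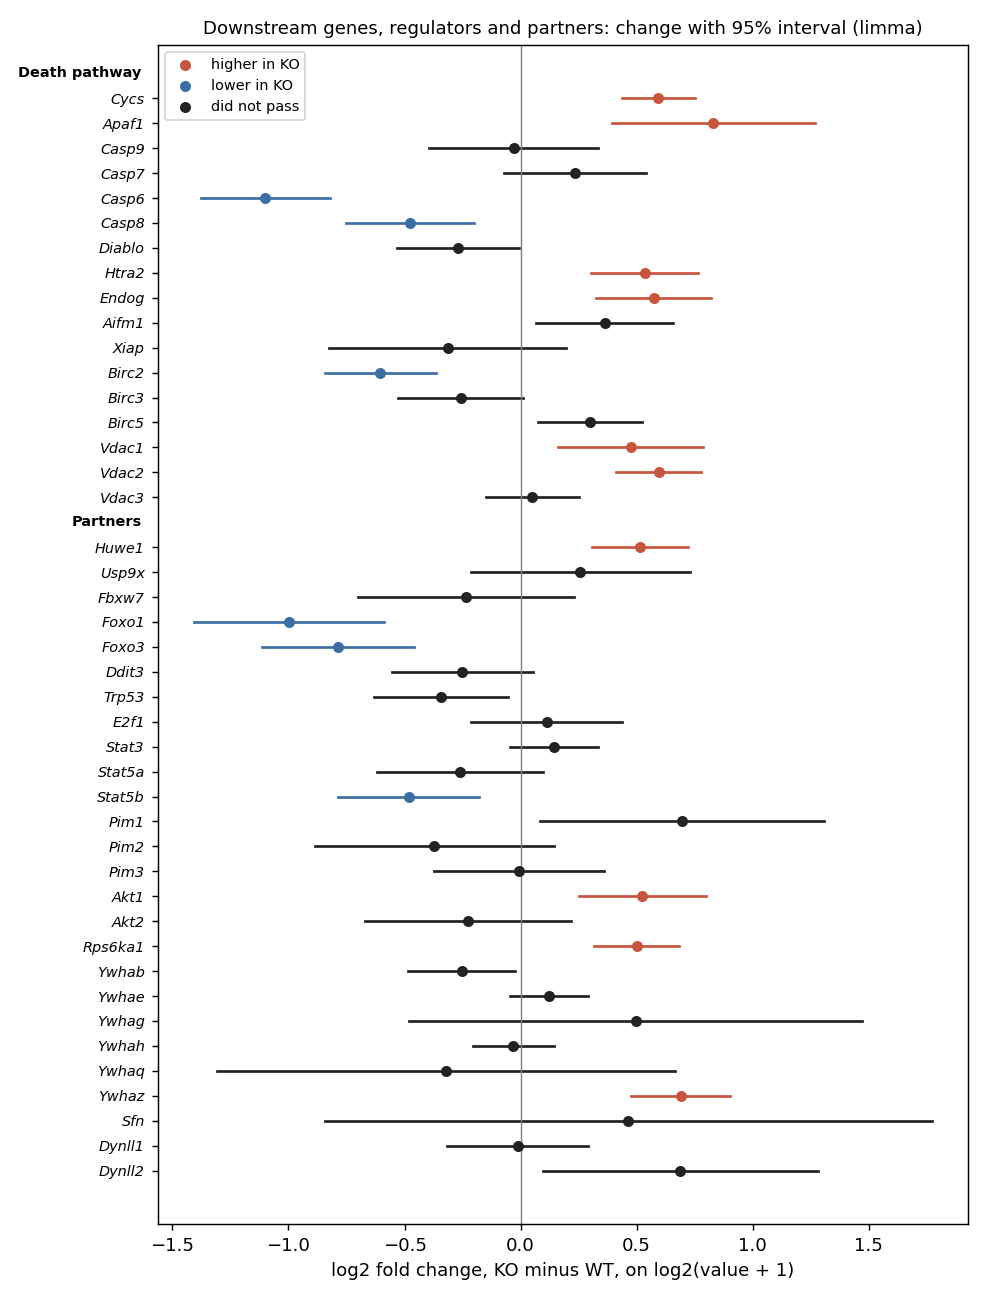
Log2 fold change of KO against WT on the log2(value + 1) scale (horizontal axis), as points with 95% intervals from limma, coloured where they passed. Shown are all but 1 of the 18 listed genes of the mitochondrial death pathway and 26 regulators and partners. Cycs, Apaf1, Vdac2 and Htra2 lie to the right of 0, and Casp6, Foxo1 and Foxo3 to the left.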

How the data were processed

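Poly(A) RNA was extracted with Trizol and sequenced from VAHTS mRNA-seq v2 libraries, per the labels' protocols. The submitters' processing notes name HISAT2, StringTie, mm10 and mm8, with no roles. Each deposited value is a gene-level signal, called only expression in the file headers. In every library all values (100%) were whole multiples of 1 step, to within 0.01 of a read, so dividing by the step gave whole reads. Of 52550 identifiers, 49035 were in GENCODE M21 under the same version, all 49035 with the same start and end, and coordinates are as the files give them (GRCm38). Exon lengths and strands were taken from GENCODE M21 by stable identifier (52396 genes).

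KO and WT (3 libraries each) were compared with limma 3.58.1 in R 4.3.3 and its intensity trend, after log2(value + 1). The 20136 genes tested reached 1 normalised read in 3 or more of the 6 libraries. Fold changes on that scale understate those of low genes. P-values were two-sided and Benjamini-Hochberg adjusted over all tested genes, with a threshold of 0.05. The recovered reads were also tested with edgeR 4.0.16 (quasi-likelihood, TMM) and DESeq2 1.42.0. Floors and intervals on reads cover counting error only. The procedure was tested on simulated data. The members and gene lists were chosen with earlier results of these data known. Named were Ppp2ca, the family, up to 6 genes per pathway list with the smallest p, Trp53, Foxo3, Cycs and Apaf1, and the 2 most read markers per list, which are described only where a member is set beside them. Other genes are said to be chosen after their values were seen. The values of 1 gene of the pathway list are not reported here, though it is counted in that list.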

Additional observations from a re-analysis of the deposited data

How the results depend on the processing

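Of the members, Bcl2 was called lower in all 19 alternatives and Bak1 higher in 15. The count of members called higher was 0 without the intensity trend and 0 to 1 with 1 library left out. The count with non-overlapping groups, 2, was 2 to 4 with 1 library left out, reaching 4 without WT replicate 2 or WT replicate 3. With fewer libraries, fewer values have to lie apart, for any gene. The share over all genes was counted only with all 6 libraries, so this range says nothing particular about the members. Survival minus death members stayed negative in the 18 alternatives that could be computed, from −1.23 to −0.64, and edgeR's filter removed Bik. Members that did not pass changed sign: Mcl1 with library quality weights (0.031) and upper quartile scaling (0.042), Bid with quantile normalization (−0.030) and scaling to the same total (−0.027), and Bmf with weights (−0.15). With 1 library left out, Mcl1 ranged from −0.22 to 0.20, Bmf from −0.15 to 0.62 and Bik from −1.71 to 0.61. Further uncalled genes did so: with quantile normalization Bcl2a1a (0.023), Bcl2a1d (0.033), Bbc3 (0.062) and Ngp (−0.19), with weights Bcl2a1d (0.23), with scaling to the same total Bcl2l15 (−0.073) and Ngp (−0.077), with a pseudocount of 0.1 Bcl2l15 (−0.96), and with upper quartile scaling Becn1 (0.0069). Leaving out 1 library gave −0.37 to 0.020 for Bbc3, −0.84 to 0.024 for Bcl2a1d, −1.24 to 1.62 for Bcl2l15, −0.30 to 0.20 for Becn1 and −0.28 to 0.49 for Ngp. The cause was not tested.

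Of the other family genes, 1 was called higher and 1 lower without the intensity trend, with quantile normalization and with the replicate block, 1 higher with scaling to the same total, and 1 to 2 higher and 0 to 1 lower with 1 library left out. Partners called lower were 6 with quantile normalization and 5 with scaling to the same total. Over all genes, 2069 were called higher and 2622 lower. The higher count was 1071 without the intensity trend, 3198 with weights and 1337 with scaling to the same total (3510 lower), and 993 to 1787 with 1 library left out, lowest without KO replicate 3. The lower count was then 1565 to 2604, at 1565, 1639 and 1602 without WT replicates 1, 2 and 3 and 1714 without KO replicate 3. Scaling to the same total moved the median of all genes by −0.13 and quantile normalization by 0.10 on the log2 scale.

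The sources used here state no pairing by replicate number. Correlations of same-numbered libraries' deviations from their group means across genes were −0.023, −0.011 and −0.021. Those of differently numbered libraries were 0.0023 to 0.018, so no library correlated best with its own number. Such correlations cannot show whether the libraries were paired. With the replicate block, 1705 of all genes were called higher and 2157 lower, and Bcl2 (adjusted p = 0.00956) and Bak1 (adjusted p = 0.0322) passed. Low counts limit Bmf, Bik and Bcl2a1b.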
